A study of Mus musculus with 8 samples.

Results

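The neurofilament and internexin genes Nefh, Nefm, Nefl and Ina encode the neuron-specific intermediate filament proteins, and their transcripts were followed in polyA RNA-seq libraries of mouse prefrontal cortex. These are 4 of the 24420 genes shared by the deposited count tables, and all 4 were among the 14809 genes that passed the filter on low counts. They were taken by name, and the family was selected on normalised counts of these same libraries, in which Nefh was already known to be lower in saline-treated mutants than in wild type. The differences of the 4 genes between the groups are therefore given as a description and support nothing beyond themselves.

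The mice were heterozygous males carrying 1 Shank3 copy that lacks exon 21, which encodes the C-terminal part of the protein (Shank3+/ΔC), and their age-matched male wild-type littermates. Shank3 encodes a scaffold of the excitatory synapse, and romidepsin is an inhibitor of class I histone deacetylases. The wild-type group had 3 libraries with no treatment named in the labels, the saline-treated mutants had 3, and the mutants given romidepsin intraperitoneally at 0.25 mg/kg a day had 2. Mice were treated for 3 days and killed 1 day later. The sample labels give an age of 5 to 6 weeks and the series text 5 to 8 weeks. The labels do not say that each library came from a separate animal, so the spread between libraries may be partly technical. Both mutant groups carry the deletion, and no romidepsin-treated wild type was analysed here. If wild type was left untreated, the mutation and the saline treatment cannot be told apart between saline and wild type.

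Reads on genes numbered from 7783537 to 15156318 per library. The labels call the cells neurons, but the tissue was slices of cortex: the neuronal vesicle gene Snap25 stood at 2001 to 3028 CPM (reads scaled to a common library size) and the myelin gene Mbp at 1202 to 2442 CPM, and markers of astrocytes, microglia and endothelium were also read in every library. Shank3 itself, counted over the whole gene and so no check of the exon 21 deletion, stood at 319 ± 26.1 CPM (SD, n = 3) in wild type, 290 ± 33.7 (n = 3) with saline and 314 ± 1.86 (n = 2) with romidepsin. Wild-type replicate 3 and saline replicate 2 stood apart. On the log2 scale the 8 cortical neuron markers of wild-type replicate 3 averaged 0.24 below the wild-type mean, its astrocyte markers 0.27 above, and its olfactory bulb markers 0.78 above. Olfactory bulb markers were not highest there: saline replicates 1 to 3 were at -0.21, 1.57 and 1.62. Meningeal markers in the same saline libraries were at 1.01, 0.87 and -0.03. Saline replicate 2 lay furthest out on the first principal component, and its endothelial markers averaged -0.59 from the wild-type mean. The saline and wild-type differences of Nefh, Nefm and Ina are also given without wild-type replicate 3. Those of Nefh and of the parvalbumin and endothelial marker lists are also given without saline replicate 2. Other results use all libraries unless a library left out is named.

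Neurofilaments are heteropolymers that fill the axon and set its calibre. The light chain Nefl forms the core, the medium chain Nefm and the heavy chain Nefh add long carboxy-terminal tails that project from the filament, and α-internexin (Ina) is a further core subunit of filaments in the central nervous system. Kinases phosphorylate the Lys-Ser-Pro repeats of the tails. Nefh is abundant in large myelinated axons and, in cortex, in deep projection neurons and many parvalbumin interneurons.

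All 4 genes encode the same kind of α-helical rod, and the tails separate the members. Nefh has 1090 codons with 51 in-frame Lys-Ser-Pro triplets between codons 522 and 887, and Nefm has 848 codons with 4 such triplets between codons 501 and 609. Nefl, with 543 codons, and Ina, with 501, have 0. The 150-base stretches with the most triplets are shown for the heavy and medium chains because they are where the tails differ, 5′ to 3′ on the coding strand, from GENCODE M21 on GRCm38, with capitals for the Lys-Ser-Pro codons. They are codons 517 to 566 of Nefh (chr11:4940920-4941069, minus strand), with 8 triplets, and 458 to 507 of Nefm (chr14:68121063-68121212, minus strand), with 2.
Nefh: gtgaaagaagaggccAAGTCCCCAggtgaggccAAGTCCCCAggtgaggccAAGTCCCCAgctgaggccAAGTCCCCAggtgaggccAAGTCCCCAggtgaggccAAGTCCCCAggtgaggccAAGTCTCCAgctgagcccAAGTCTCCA
Nefm: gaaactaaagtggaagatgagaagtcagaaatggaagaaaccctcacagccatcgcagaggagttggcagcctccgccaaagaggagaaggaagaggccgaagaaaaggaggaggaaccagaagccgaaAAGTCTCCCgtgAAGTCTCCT
Glutamate codons made up 16.8% of the codons of Nefh, 21.1% of Nefm, 17.9% of Nefl and 13.6% of Ina.

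Reads of these related genes can largely be told apart. Of all 50-base windows of its main transcript, none of Nefh and none of Nefm occurred in an exon of another annotated gene on either strand. For Nefl the share was 31.8%, all of it in an annotated long Nefm transcript that runs through Nefl on the opposite strand and overlaps 1108 of its exonic bases. For Ina it was 12.8%, all of it in Nt5c2 on the opposite strand. Whether the counting used strand is not given in the sources used here, so the counts of Nefl and Ina are less certain in these stretches. If the annotation used for counting held the long Nefm transcript, the counts of Nefm are less certain there too. Nefh lies on chromosome 11 at 4938754 to 4948064 (minus strand, 4 exons), Nefl on chromosome 14 at 68083863 to 68089095 (plus strand, 4 exons), and Ina on chromosome 19 at 47014698 to 47025327 (plus strand, 3 exons). Nefm (minus strand, 3 exons in the main transcript) lies beside Nefl on chromosome 14, at 68119545 to 68125004 in the RefSeq annotation of the same assembly.

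The core subunit Nefl was the most abundant member and the heavy chain the least. Per kilobase of exon, the wild-type means were 98.2 ± 13.3 CPM for Nefl, 62.8 ± 17.4 for Nefm, 47.1 ± 4.66 for Ina and 15.001 ± 2.73 for Nefh (SD, n = 3 each). The order of the means was the same with saline, at 88.8, 42.8, 38.5 and 10.4, and with romidepsin, at 88.8, 46.2, 44.2 and 14.7. Nefm and Ina were neighbours whose ranges overlapped in each group. Nefl lay above and Nefh below the other members in every group without overlap.

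The heavy chain gene Nefh was the member with the clearest separation of groups. Normalised counts were 60.6, 70.5 and 48.7 CPM in wild-type replicates 1 to 3, 40.9, 38.9 and 44.4 in the saline-treated mutants, and 55.8 and 61.6 in the romidepsin-treated mutants, from 346 to 936 reads per library. Every saline library lay below every wild-type and every romidepsin library, and the romidepsin libraries lay within the wild-type range. The means were 59.9 ± 10.9 (SD, n = 3), 41.4 ± 2.78 (n = 3) and 58.7 ± 4.16 (n = 2).

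The fitted level of Nefh with saline was 0.689-fold that of wild type (95% interval 0.578 to 0.822), a log2 difference of -0.54 with a standard error of 0.12. In edgeR's quasi-likelihood test the adjusted p over all genes was 0.227, so it did not pass the threshold of 0.05. With DESeq2 the adjusted p was 0.033. Without wild-type replicate 3 the log2 difference was -0.67, with an edgeR adjusted p of 0.0039, and without saline replicate 2, the library with the lowest Nefh, it was -0.50, with an edgeR adjusted p of 0.771. The background differs between these fits. The edgeR test called 0.00675% of all genes (1 gene, the pseudogene Tmem181b-ps), DESeq2 called 0.209%, and edgeR without wild-type replicate 3 called 0.369%. In the romidepsin-treated mutants Nefh was 1.42-fold the saline level (95% interval 1.17 to 1.73), a log2 difference of 0.51 with a standard error of 0.13 and an adjusted p of 1.00 (edgeR), and 0.47 without saline replicate 2. That test called 0% of genes between romidepsin and saline, DESeq2 called 2 genes and limma-voom called 0, and 483 genes had an unadjusted p under 0.05. Between romidepsin and wild type the log2 difference of Nefh was -0.03 ± 0.13 (SE), in a comparison where edgeR called 0.00675% of genes. The romidepsin and saline comparisons share the saline libraries, so a low saline level enters both with opposite sign.

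The medium chain gene Nefm varied most among the wild-type libraries. It stood at 236, 249 and 143 CPM in wild type, at 124, 140 and 165 with saline, and at 134 and 175 with romidepsin, with means of 209 ± 57.9, 143 ± 20.7 and 154 ± 28.9. Wild-type replicates 1 and 2 were the highest libraries, and replicate 3 lay within the range of both mutant groups. The saline level was 0.679-fold that of wild type (95% interval 0.481 to 0.959, adjusted p 0.539 by edgeR). Without wild-type replicate 3 the log2 difference went from -0.56 to -0.78, with an edgeR adjusted p of 0.046, in a fit that called 0.369% of all genes. Without wild-type replicate 2 the difference was -0.41. The romidepsin mean was near the saline mean, at a fitted ratio of 1.08 (95% interval 0.735 to 1.60). The interval for the romidepsin and wild-type log2 difference, -0.44 ± 0.24 (SE), included 0.

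The light chain gene Nefl differed least between saline and the other groups. Its levels were 372, 340 and 284 CPM in wild type, 258, 314 and 328 with saline, and 287 and 314 with romidepsin. The 3 groups overlapped, with means of 332 ± 44.9, 300.2 ± 36.9 and 300.3 ± 19.1. The saline level was 0.904-fold that of wild type with an interval of 0.769 to 1.06 (adjusted p 0.753, edgeR), and the romidepsin to saline ratio was 1.00 with an interval of 0.836 to 1.20. Changes within these intervals were not detectable with these libraries.

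The internexin gene Ina lay between Nefh and Nefl in the size of its differences between saline and the other groups. It stood at 166, 155 and 136 CPM in wild type, at 118, 122 and 135 with saline, and at 136 and 151 with romidepsin, with means of 153 ± 15.1, 125 ± 9.39 and 143 ± 10.8. No saline library reached the lowest wild-type or romidepsin library, but the highest saline library, at 135.4 CPM, was close to both, at 136.5 and 135.7. The fitted saline level was 0.817-fold that of wild type (95% interval 0.717 to 0.932, adjusted p 0.378 by edgeR), and romidepsin to saline was 1.15-fold (0.993 to 1.33). Between saline and wild type the log2 difference of Ina was -0.29. With 1 library left out it ran from -0.37 without wild-type replicate 3 to -0.23 without wild-type replicate 1.

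**Figure D1:**
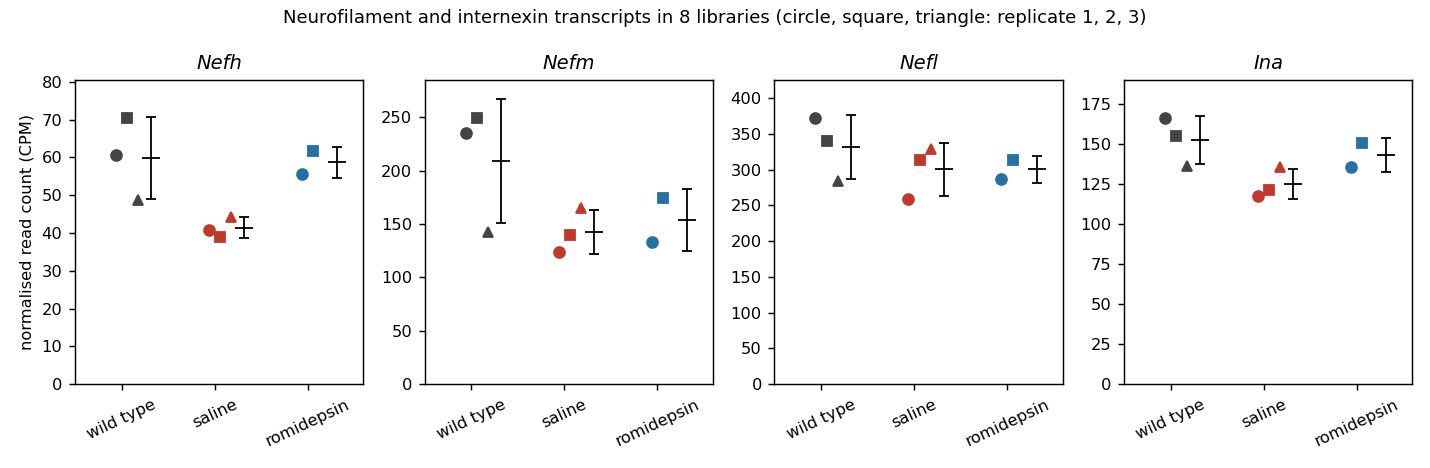
Normalised read count in CPM (vertical axis, from 0) of Nefh, Nefm, Nefl and Ina in each library of the wild-type, saline and romidepsin groups; points are libraries, shaped by replicate number, and the bars beside them are the mean ± SD. The saline points of Nefh, at 38.9 to 44.4 CPM, lie below all others, while those of Nefl overlap the other groups.

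Across the family, the 4 log2 differences between saline and wild type were all negative, with a median of -0.41, against a median of 0.0047 over all tested genes, of which 7218 were lower. The median between romidepsin and saline was 0.16, against -0.0029 over all genes. Nefh and Ina were the members whose saline libraries all lay below the wild-type libraries, as 6.36% of all genes did, and whose romidepsin libraries all lay above the saline libraries, as 10.8% of all genes did. No member lay wholly below wild type with romidepsin, where 9.08% of genes did. An unadjusted edgeR p under 0.05 was given to Nefh, Nefm and Ina between saline and wild type, where 8.39% of genes had one, and to Nefh between romidepsin and saline, where 3.26% had one. The reads of the 4 genes summed to 754 ± 123 CPM in wild type, 609 ± 66.4 with saline and 656 ± 63.0 with romidepsin. In bulk tissue, fewer cells that express these genes and less RNA per cell cannot be told apart.

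**Figure D2:**
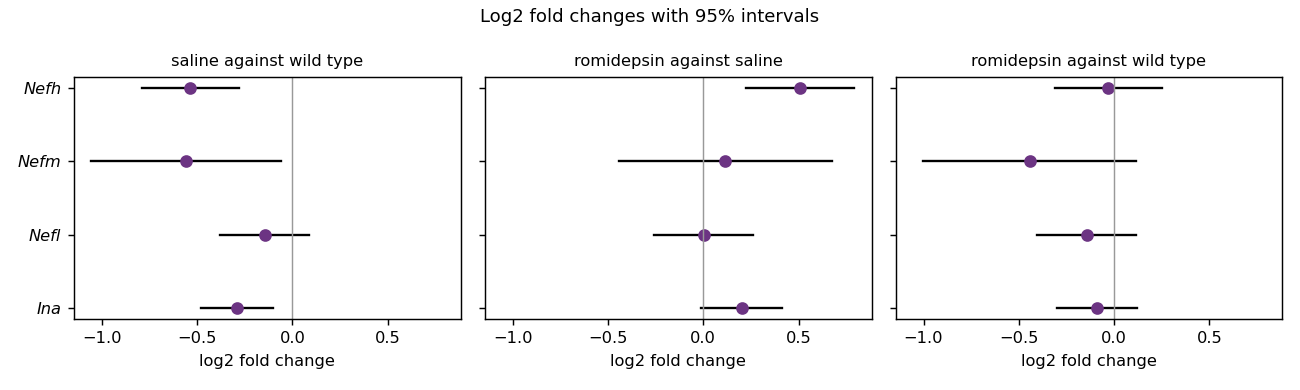
Log2 fold change (horizontal axis) of each member in the 3 comparisons, with points for the edgeR estimate and lines for the 95% interval. The interval of Nefh lies below 0 for saline against wild type and above 0 for romidepsin against saline; that of Nefl includes 0 in each.

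Ratios within a library need no scaling between libraries. Nefh reads made up 7.25%, 8.66% and 7.96% of the reads of the 4 genes in wild type, 7.57%, 6.33% and 6.60% with saline, and 9.11% and 8.79% with romidepsin. The saline and wild-type shares overlapped, through saline replicate 1, and both romidepsin shares were above all others. Per exonic base, Nefh stood at 0.138, 0.176 and 0.145 of Nefl in wild type, at 0.134, 0.105 and 0.114 with saline, and at 0.165 and 0.166 with romidepsin. The saline values were the lowest here, without overlap.

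Nefm stood at 0.641, 0.745 and 0.511 of Nefl in wild type, at 0.485, 0.452 and 0.508 with saline, and at 0.472 and 0.564 with romidepsin. The low wild-type value was again that of replicate 3, just above the highest saline value. Ina kept within a narrower band, at 0.466 to 0.502 of Nefl in wild type, 0.404 to 0.475 with saline, and 0.494 to 0.502 with romidepsin. Whether the members differed from each other in their change was not tested.

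**Figure D3:**
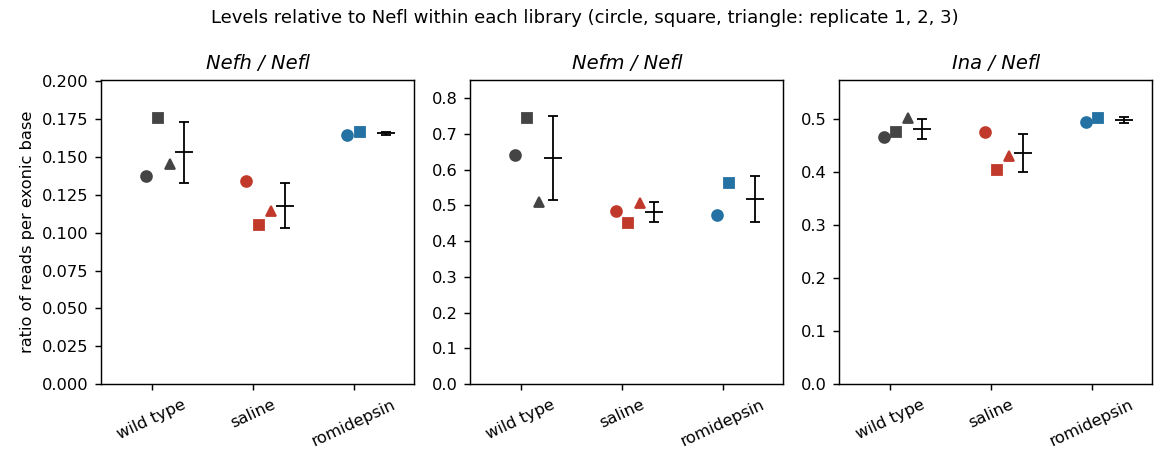
Level of Nefh, Nefm and Ina per exonic base as a ratio to Nefl in the same library (vertical axes, from 0), with points for libraries and bars for the mean ± SD. The Nefh ratio is 0.105 to 0.134 in the saline libraries and 0.138 to 0.176 in the others.

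Relative to the mean of 8 cortical neuron markers in the same library, a scaling added after the data were seen, the log2 level of Nefh stood at -0.13, 0.18 and -0.05 around the wild-type mean in wild type, at -0.47, -0.69 and -0.45 with saline, and at -0.12 and -0.02 with romidepsin. Wild-type replicate 3 was closer to the other wild-type libraries on this scale than in CPM, where it stood at -0.28. Between saline and wild type, the difference of means relative to the neuron markers was -0.54 for Nefh, -0.54 for Nefm, -0.31 for Ina and -0.16 for Nefl. The edgeR fit, a different measure, gave -0.54 for Nefh. The neuron markers themselves did not separate saline from wild type: 4 of 8 were lower with saline, with a median of -0.0037. In wild type their mean log2 level ran from -0.24 in replicate 3 to 0.16 in replicate 1. Their summed level was 10678 to 11110 CPM with saline and 11425 to 11471 with romidepsin, without overlap, while their mean log2 levels overlapped. Of the 8, 5 were higher with romidepsin than with saline.

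Across the 8 libraries, Nefh had a Pearson r on log2 CPM of 0.88 with Ina, 0.77 with Nefm and 0.52 with Nefl. Nefm had 0.88 with Ina and 0.87 with Nefl, and Nefl and Ina had 0.78. These values describe 8 points that share library composition and group differences. With the group means subtracted the closest partner of Nefh changed: r was 0.90 with Nefm, 0.72 with Ina and 0.60 with Nefl. The pairs without Nefh then had 0.87 to 0.91.

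Likeness was then measured against 10833 other genes whose log2 CPM averaged 3 or more. Those with the profile most like Nefh were Adam19, a membrane metalloprotease (r = 0.974), the zinc finger gene Hivep2 (0.972), Kcnk1, a potassium channel (0.972), Prkag2, an AMP-activated kinase subunit (0.969), and the kinase Mast3 (0.966). The other members ranked lower, Ina at 63, Nefm at 282 and Nefl at 1393. Adam19 stood at 44.6, 45.9 and 32.0 CPM in wild type, at 26.0, 27.0 and 28.3 with saline, and at 37.2 and 39.2 with romidepsin, with the same separation of the saline group as Nefh. Its log2 differences were -0.59 between saline and wild type (adjusted p 0.190, edgeR) and 0.50 between romidepsin and saline. Genes named for likeness were picked on these same libraries, so group differences that match those of a member follow from the choice. Of the 10833 genes, 43 (0.397%) had an r over 0.9 with Nefh.

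The profiles most like Ina were those of Unc13a, a vesicle priming factor (0.972), the annexin Anxa6 (0.968), Scn4b, the sodium channel β4 subunit (0.966), Jade2 (0.964) and the thymidylate kinase Dtymk (0.963). Scn4b stood at 83.9, 92.3 and 46.3 CPM in wild type, 26.3, 33.4 and 47.6 with saline, and 46.2 and 61.4 with romidepsin. Its saline and wild-type libraries overlapped, and its log2 difference was -1.08 (adjusted p 0.425, edgeR). Nefm was most like Arhgap25 (0.970), Nckipsd (0.965), Gdpd5 (0.962), Hmgxb3 (0.960) and Lzts3 (0.955), and Nefl most like Kcnip3 (0.962), Sun1 (0.958), the adenylate cyclase Adcy3 (0.952), the phosphatase Ptpn3 (0.945) and Hnrnpf (0.944). The choice was not stable: without any 1 library, 0 to 4 of the 5 names were still among the closest 5, depending on the member and the library. With the group means subtracted 0 or 1 of the 5 names stayed, and by Spearman correlation 1 or 2 did.

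The nearest tested genes were read for comparison. Thoc5, an mRNA export factor 9.89 kb from Nefh, stood at 28.9 ± 1.42 CPM in wild type, 26.3 ± 0.542 with saline and 32.5 ± 2.07 with romidepsin, and Ap1b1, on the other side, at 210 ± 10.2, 201 ± 8.92 and 221 ± 2.23. Nefm and Nefl were taken as neighbours of each other at lower coordinates, so the nearest tested gene below the pair was not read. The nearest tested gene at higher coordinates, 904 kb from Nefm, was Stc1, a secreted hormone, at 2.49 ± 0.517, 1.25 ± 0.543 and 1.91 ± 0.226 CPM. Next to Ina, Nt5c2, a nucleotidase, stood at 78.0 ± 2.64, 74.3 ± 2.41 and 73.6 ± 8.39 CPM, and Pcgf6, a Polycomb component, at 17.0 ± 3.54, 12.7 ± 2.18 and 14.9 ± 2.25. No neighbour passed the threshold in edgeR.

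The partners of the filaments were then described by list, and no gene of any list passed the threshold in edgeR in any of the 3 comparisons. Among the other intermediate filament genes, 7 of 10 tested were lower with saline than in wild type, with a median log2 difference of -0.11. The lens filament gene Bfsp2 stood at 7.28 ± 0.805 CPM in wild type and 4.25 ± 0.889 with saline, and Nes, the filament of neural progenitors and vessels, at 17.1 ± 0.812 and 12.1 ± 3.37. With romidepsin Nes was at 10.6 ± 2.45, so its saline level was not the lowest.

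Of the filament linkers and axonal transport motors, 8 of 18 were lower with saline (median 0.0050) and 12 of 18 higher with romidepsin than with saline (median 0.06). The cytolinker Plec stood at 269 ± 11.1, 232 ± 22.7 and 262 ± 10.6 CPM in the wild-type, saline and romidepsin groups, in that order, and Dync1h1, the dynein heavy chain, at 818 ± 31.3, 752 ± 40.6 and 899.5 ± 11.4. Of 21 microtubule genes, 7 were lower with saline (median 0.04), and Stmn4, a tubulin-binding stathmin, stood at 186 ± 16.3, 212 ± 4.72 and 193 ± 0.658. The microtubule list moved little between romidepsin and saline, with 12 of 21 higher and a median of 0.03.

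Of 20 kinases and phosphatases that act on the tails, 8 were lower with saline (median 0.02) and 9 higher with romidepsin than with saline (median -0.01). Cdk5r2, an activator of Cdk5, stood at 341 ± 17.0, 319 ± 11.2 and 359 ± 9.16 CPM. Among the 12 genes of filament turnover, chaperones and RNA binding, 7 were lower with saline (median -0.01). The small heat shock gene Hspb1 stood at 10.9 ± 5.14, 6.28 ± 1.66 and 10.3 ± 2.38, with a wide spread in wild type.

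Genes of the axon initial segment and node encode proteins that lie at the start of axons and along myelinated ones. With saline 14 of 21 were lower than in wild type, with a median of -0.10, and 18 of 21 were higher with romidepsin than with saline, with a median of 0.12. The spectrin gene Sptbn4 stood at 258 ± 9.89, 214 ± 25.6 and 249 ± 5.54 CPM. Cntnap1, which encodes a paranodal adhesion protein, stood at 282 ± 34.7, 228 ± 24.3 and 281 ± 6.15, and its partner Cntn1 went the other way, at 402 ± 47.6, 499 ± 25.9 and 460 ± 6.78. Of the axon growth and injury genes 3 of 10 were lower with saline (median 0.11), and the growth cone gene Gap43 stood at 233 ± 31.4, 274 ± 17.3 and 240 ± 9.23.

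Parvalbumin and endothelial markers had more lower than higher members with saline, although neither list mean separated the saline libraries from wild type as Nefh did. Single markers did so. With saline, 9 of 15 endothelial and 4 of 16 parvalbumin markers lay wholly below wild type, as 6.36% of all genes did, and 2 parvalbumin markers wholly above. The parvalbumin mean separated romidepsin from saline. There 10 parvalbumin and 5 endothelial markers lay wholly higher, as 10.8% of all genes did, and 0 wholly lower. Of 16 parvalbumin interneuron markers, 12 were lower with saline than in wild type (median -0.16) and 14 were higher with romidepsin than with saline (median 0.22). Their summed level was 1657 to 1777 CPM in wild type, 1493 to 1707 with saline and 1773 to 1837 with romidepsin, and none was at 0 in any library. Their mean log2 level was -0.18, -0.29 and -0.03 from the wild-type mean in the saline libraries, the last within the wild-type range of -0.05 to 0.06. Without saline replicate 2 the 2 medians were -0.07 and 0.18. The neuropeptide gene Tac1 stood at 17.9 ± 1.27, 13.6 ± 1.94 and 17.7 ± 0.9004 CPM. Pvalb itself, named by its place as the defining marker, stood at 36.6, 41.9 and 31.4 in wild type, 25.7, 22.8 and 39.6 with saline, and 38.5 and 40.03 with romidepsin. Its saline replicate 3 overlapped wild type, while Nefh in the same library did not.

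Of 15 endothelial and pericyte markers, 12 were lower with saline (median -0.41) and 14 higher with romidepsin than with saline (median 0.22), with summed levels of 353 to 435, 268 to 357 and 339 to 394 CPM, and none at 0. Their mean log2 level was -0.09, -0.59 and -0.36 in the saline libraries, the first within the wild-type range of -0.11 to 0.13. Without saline replicate 2 the 2 medians were -0.34 and 0.14. The part of either list in the Nefh result was not tested. Layer 5 projection neuron markers, by contrast, were lower with saline for 7 of 15 (median 0.02), with summed levels of 1219 to 1568 CPM in wild type, 1357 to 1544 with saline and 1415 to 1481 with romidepsin. Bcl11b, a layer 5 transcription factor, stood at 87.6 ± 5.13, 71.2 ± 7.61 and 77.8 ± 5.89 CPM, and Tshz2 at 27.5 ± 1.64, 35.9 ± 4.41 and 27.1 ± 2.65.

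**Figure D4:**
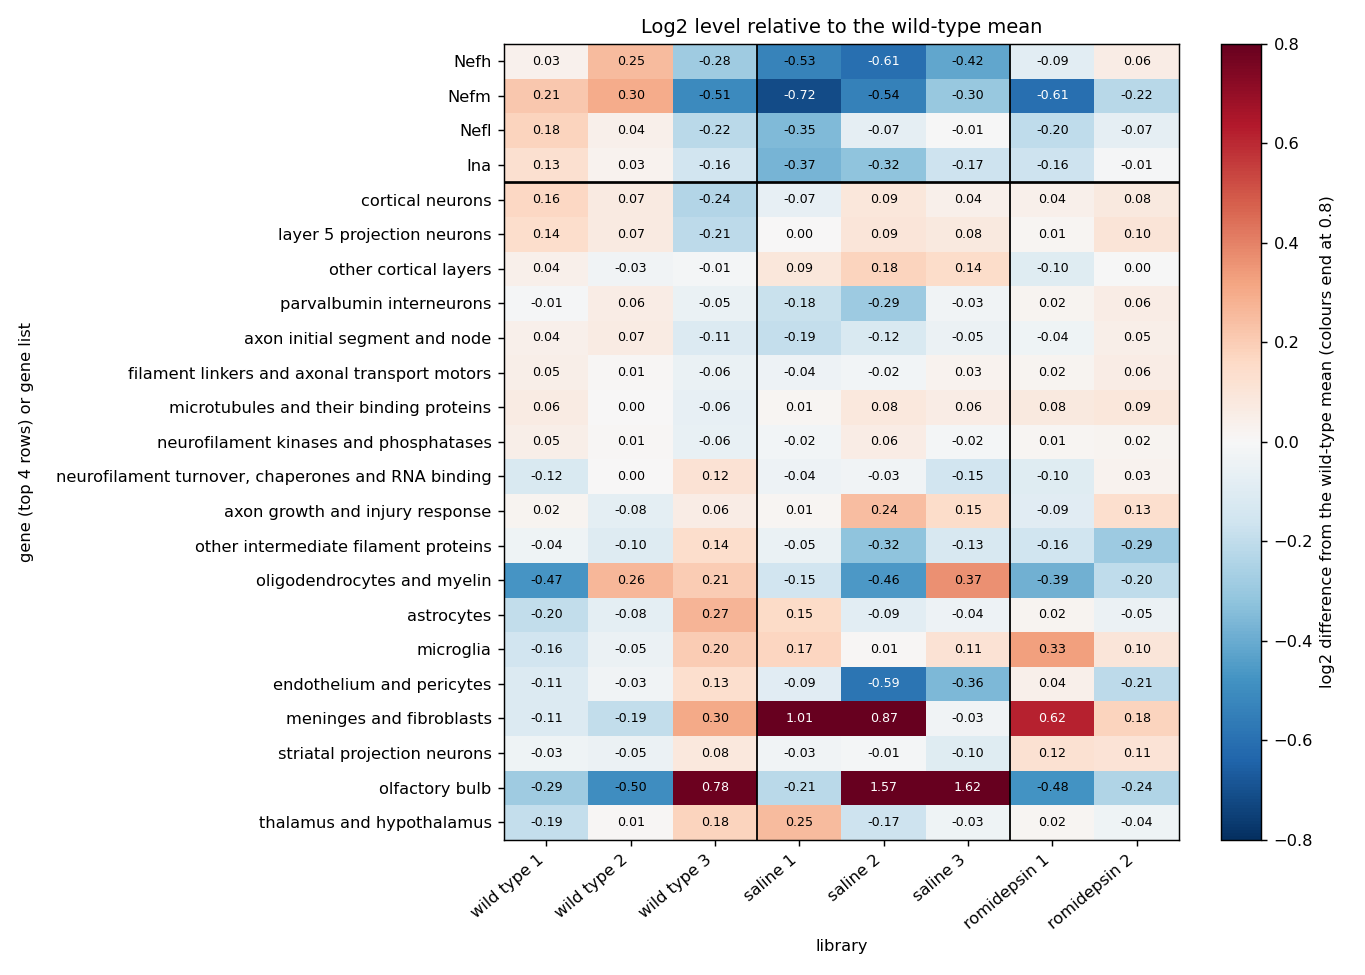
Log2 level of each member (top 4 rows) and mean log2 level of each gene or marker list (rows below) in each library (columns), as the difference from the wild-type mean. Nefh is at -0.61 to -0.42 in the saline libraries, and wild-type replicate 3 is low for all 4 members and for cortical neurons (-0.24).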

How the data were processed

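RNA was measured in 8 libraries. The deposited tables hold raw read counts per gene symbol, made by the authors with bcl2fastq 2.17.1.14, TopHat2 2.1.1 and HTSeq 0.6.1 on mm10 (GRCm38), per the submitters' processing notes; for the annotation and strand setting nothing is stated. In the 7 tables with summary lines, 32.4% to 35.3% of reads were on genes and 48.0% to 49.3% on no feature; these lines were left out. Groups follow the labels. The members and lists were chosen with earlier results of these data known.

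Counts were fitted in R 4.3.3 with edgeR 4.0.16 (TMM, filterByExpr, robust quasi-likelihood, a term per group, all libraries, Benjamini-Hochberg over 14809 genes; 9611 were removed). CPM uses the TMM-scaled totals, and log2 CPM a prior count of 2. Intervals cover 95%. DESeq2 1.42.0, limma 3.58.1 voom, other scalings, filters and library subsets were alternatives. Scripts were tested on simulated data. Genes named are the members, Shank3, per member the 5 genes most correlated with it, the nearest tested neighbours, and genes of each list with the smallest p (some are not reported here); Snap25, Mbp and Pvalb were named for their role after values were seen. No amino acid or promoter sequence is shown.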

Additional observations from a re-analysis of the deposited data

How the results depend on the processing

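Each fit was repeated under 17 alternatives. The number of genes called between saline and wild type was 1, and became 31 with DESeq2, 12 without a filter, 2 with only the 2 groups compared, and 1 to 54 when 1 library was left out, the highest without wild-type replicate 3. Between romidepsin and saline it was 0, and became 2 with DESeq2 and 0 to 3 with a library left out. Between romidepsin and wild type it was 1, and became 4 with DESeq2, 2 with limma-voom, 2 without a filter, 0 with total counts only, 0 with upper quartile scaling and 0 to 3 with a library left out. With the replicate number as a block the 3 counts were 4, 0 and 0. Same-numbered libraries had correlations of -0.18 to 0.10 after the group means were subtracted. With 2 or 3 libraries per group, these values cannot show whether the numbers pair the libraries.

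The saline and wild-type log2 difference of Nefh passed the threshold with DESeq2 (-0.54) and without wild-type replicate 3; with a library left out it ran from -0.67 to -0.40, and its adjusted p over all alternatives from 0.0039 to 0.853. That of Nefm passed only without wild-type replicate 3, in a range of -0.78 to -0.41. Those of Nefl and Ina kept their sign and stayed above an adjusted p of 0.05 in all 17, with a lowest value of 0.336 for Nefl and 0.051 for Ina. Between romidepsin and saline Nefh ran from 0.43 to 0.58. Nefm ran from -0.091 to 0.29, negative without romidepsin replicate 2. Nefl, at 0.0020, changed sign with total counts only (-0.0067), only the 2 groups (-0.00084), the replicate block (-0.018) and the neuron marker scaling (-0.031), and ran from -0.097 to 0.069 with a library left out. Between romidepsin and wild type Nefh ran from -0.17 to 0.10, positive without wild-type replicate 2 or romidepsin replicate 1. The cause of these changes was not tested. With 2 romidepsin libraries, the spread in that group rests on the other groups.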

Other observations

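Lists of other cells were read in the same way, and no gene of them passed the edgeR threshold. Of 13 myelin genes, 12 were lower with saline than in wild type (median log2 difference -0.08) and 13 lower with romidepsin than in wild type (median -0.30), with summed levels of 3246 to 5309 CPM in wild type, 3178 to 5835 with saline and 3499 to 4030 with romidepsin. Opalin, a gene of myelinating oligodendrocytes, stood at 11.8 ± 2.89, 14.7 ± 4.94 and 7.34 ± 0.770 CPM. Of 12 microglia genes, 11 were higher with saline than in wild type (median 0.07) and 12 with romidepsin (median 0.20). Of 11 astrocyte genes, 6 were higher with saline (median 0.01).

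Of the markers of other cortical layers, 10 of 14 were higher with saline than in wild type (median 0.10), and Calb1, a calcium-binding protein of upper layers, stood at 109 ± 7.24, 133 ± 20.2 and 124 ± 0.523 CPM. All 12 meningeal genes were higher with saline (median 0.63), with mean log2 differences of 1.01, 0.87 and -0.03 in the 3 saline libraries. All 6 tested olfactory bulb markers were higher with saline (median 0.83), at -0.21, 1.57 and 1.62 in the same libraries. The part of meningeal or olfactory bulb tissue in the Nefh result was not tested. Of 9 striatal markers 5 were higher with saline (median 0.09), and of 6 thalamic and hypothalamic markers 3 were (median -0.0061).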
